A study of Mus musculus with 3 samples.

Results

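The actin cytoskeleton genes described here are 49 symbols chosen by name, with earlier results of these data known. They cover actin itself and the proteins that bind its monomers, branch, cap, sever, bundle, anchor and pull on its filaments. They were found as 50 of 55536 annotated gene IDs, since Myl12b carries a pair of IDs, and they were set against 10343 protein-coding gene symbols that reached 1 TPM in at least 1 library. The cells were macrophages grown from the bone marrow of C57BL/6J mice whose sex and age the labels do not give, and their polyadenylated RNA was sequenced in bulk. All 3 libraries had the same treatment: lipid A at 100 ng/ml for 12 h, a washout of 12 h, and lipid A again at 100 ng/ml for 480 min. Lipid A is the part of bacterial lipopolysaccharide that Toll-like receptor 4 senses. The written description of the samples names lipid A and their treatment fields name lipoprotein A. The libraries are biological replicates 1, 2 and 3 of 1 group under 1 donor record, and the labels do not say whether they came from separate animals, so the spread between them may be technical. No untreated library was analysed here, so no effect of the stimulation can be given.

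Macrophages crawl, engulf and spread by building and dismantling actin filaments. Monomers are held in reserve by thymosins and delivered to growing ends by profilin. The Arp2/3 complex, switched on by WASP and WAVE proteins, starts new filaments as branches on old ones, capping proteins stop growth at the fast-growing end, and cofilin severs ageing filaments. Crosslinkers bundle or net the filaments, linkers tie them to the membrane and to adhesions, and myosin II slides them to make force.

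Levels are in TPM (a share of all transcripts that takes the length of a transcript and the depth of its library into account) and are means ± SD over the 3 libraries (n = 3) unless a library is named. Expected counts totalled 24596382, 54016971 and 43127749 in replicates 1, 2 and 3. Replicate 2 stood apart: mitochondrially encoded messenger RNA took 6.86% of its counts, against 1.06% in replicate 1 and 1.13% in replicate 3. All 8 macrophage markers reached 1 TPM in every library, with a summed level of 13482 to 16732 TPM, lowest in replicate 2. Lyz2 was the largest part of that sum, and single markers moved apart. In replicates 1, 2 and 3 Cd14 had 381, 100 and 509 TPM, Fcgr1 741, 329 and 720 TPM and Cd68 1980, 3862 and 2063 TPM. Most markers of other cell types were low, with the exceptions named here. All 8 fibroblast markers had means under 1 TPM (summed level 0.68 to 3.05 TPM, highest in replicate 2), and so did all 8 muscle actin and smooth muscle genes (0.77 to 1.33 TPM), with Acta1 and Actc1 at 0 counts. Neutrophil markers summed to 4.04 to 22.2 TPM, highest in replicate 2, with Ly6g at 0 counts. Of 5 T cell markers found, Cd4 alone reached 1 TPM, at 113 TPM in replicate 2 against 20.0 TPM in replicate 1 and 33.6 TPM in replicate 3, while Cd3d, Cd3e and Cd3g had 0 counts in replicates 1 and 3 and at most 10 in replicate 2. Platelet markers summed to 88.6 to 137 TPM, nearly all of it Pf4, with Gp1bb at 0 counts, B cell markers to 1.60 to 3.22 TPM with Cd79a at 0 counts, and dendritic cell markers to 2.32 to 4.16 TPM. Their part in the results was not tested, and in bulk RNA fewer cells of a type cannot be told apart from less RNA per cell.

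The listed actin cytoskeleton genes were abundant as a group, but the list was chosen with earlier results of these data known. Further turnover, nucleation, crosslinking and myosin genes were kept in other lists, with medians of 3.72, 4.38, 11.0 and 42.0 TPM. The shares given here therefore describe the 49 genes and not the whole pathway. All 49 reached 1 TPM in every library, as did 9435 of the 10343 detected genes. A mean of 100 TPM was reached by 36 of the 49 members (73.5%), against 1254 of the detected genes (12.1%), and 1000 TPM by 8 members. The median of the members' mean levels was 294 TPM, against 15.1 TPM for the detected genes. Together the members took 4.49%, 4.27% and 4.33% of all TPM in replicates 1, 2 and 3, and the actins, thymosins and profilin alone took 2.85%, 2.80% and 2.61%. The share of the group in all TPM was therefore alike in the 3 libraries, while its division among the members was not. Mitochondrially encoded messenger RNA held 167556 TPM in replicate 2, against 25901 TPM in replicate 1 and 39420 TPM in replicate 3. As TPM are shares, this lowers the TPM of nuclear genes in replicate 2. Shares of nuclear TPM alone were not computed.

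**Figure D1:**
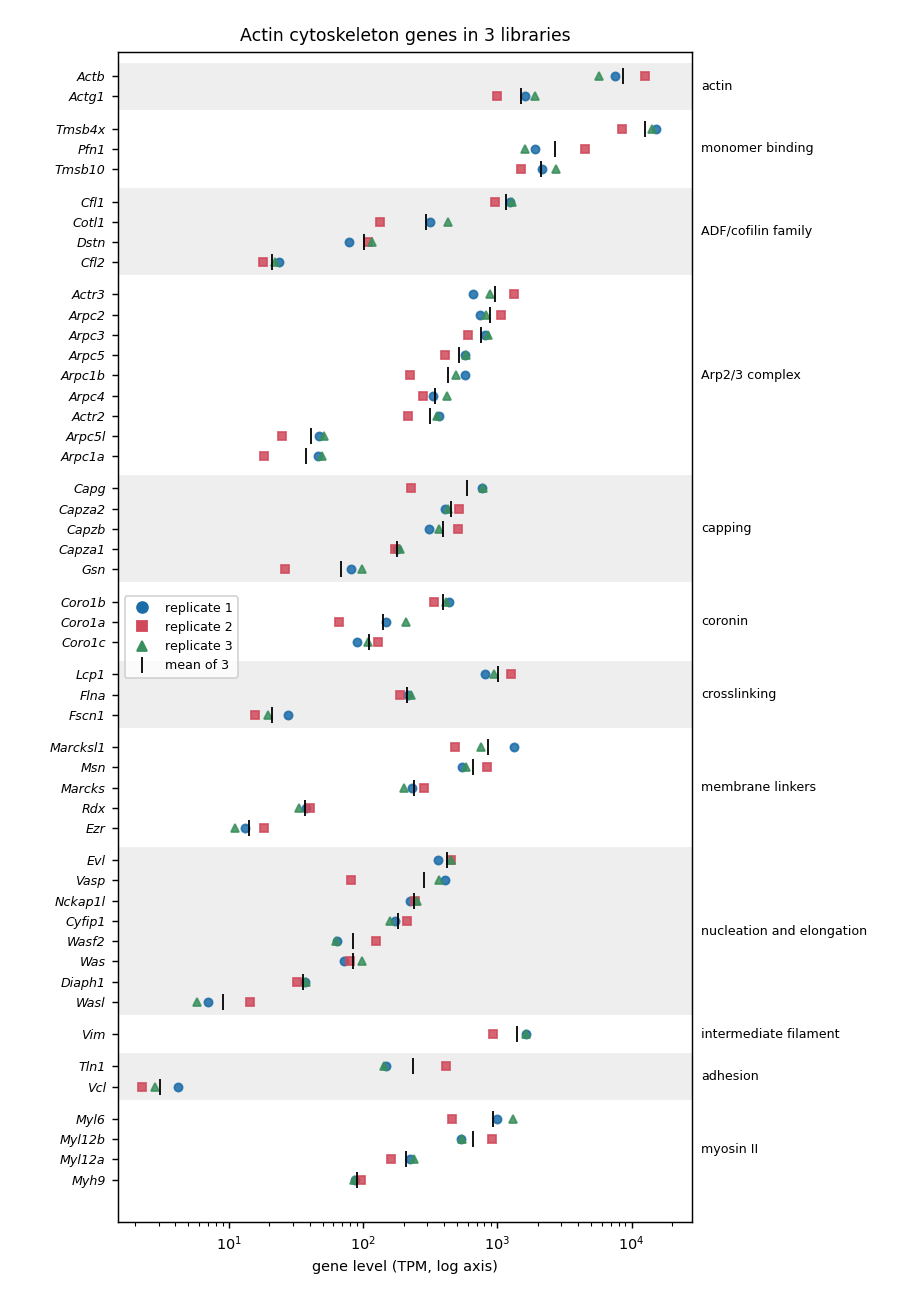
Gene level in TPM on a log axis (x) of each of the 49 actin cytoskeleton genes (y, grouped by role), with 1 point per library and a bar at the mean of 3. Levels run between means of 3.09 TPM for Vcl and 12620 TPM for Tmsb4x, and replicate 2 lies to one side of the other 2 libraries for most genes.

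Genes of actin and of the proteins that hold its monomers had the highest mean gene TPM of the members. The order was not the same in each library, with Actg1 at 986 TPM in replicate 2 and Actr3 at 1338 TPM. By counts scaled to depth alone, Lcp1 and Msn exceeded Pfn1 and Tmsb10 in each library. Tmsb4x, thymosin beta 4, the main store of unpolymerised actin, had 15248, 8428 and 14184 TPM in replicates 1, 2 and 3 and a mean of 12620 ± 3670 TPM, rank 5 among nuclear protein-coding genes. Actb, cytoplasmic beta-actin, had 7569, 12572 and 5712 TPM (mean 8618 ± 3550 TPM, rank 9). Tmsb4x was thus the higher of this pair in replicates 1 and 3 and the lower in replicate 2. The log2 ratio of Tmsb4x over Actb by gene TPM was 1.01, -0.58 and 1.31. By that measure the order of thymosin and actin was not the same in all libraries. Tmsb4x was the higher in each library by the second quantification that the authors deposited (8266 against 6915 TPM in replicate 2). So it was by leading coding transcripts, an alternative chosen after seeing the data (8371 against 5603 TPM in replicate 2). By counts scaled to depth but not to length the mean ratio was -0.73. Without replicate 2 the ratio by gene TPM averaged 1.16 and was separated by the rule given next.

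Tmsb10, a second thymosin of the same function, had 2135, 1503 and 2725 TPM (mean 2121 ± 611 TPM). The coding sequences of both thymosins are 135 bases long and are shown because these short genes are among the most abundant members. Spliced and read 5′ to 3′ on the minus strand of mm10, they lie within chrX:167207501-167208036 and chr6:72957618-72958012. Capitals mark the 40 bases that differ.
Tmsb4x: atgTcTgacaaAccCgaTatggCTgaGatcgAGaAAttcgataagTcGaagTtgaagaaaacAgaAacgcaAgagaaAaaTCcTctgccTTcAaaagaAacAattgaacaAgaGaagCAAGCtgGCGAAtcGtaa
Tmsb10: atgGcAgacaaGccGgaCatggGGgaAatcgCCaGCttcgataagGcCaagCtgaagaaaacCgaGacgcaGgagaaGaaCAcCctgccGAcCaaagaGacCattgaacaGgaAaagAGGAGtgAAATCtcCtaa
The 95 shared bases make 70.4% identity. Tmsb4x exceeded Tmsb10 by 2.84, 2.49 and 2.38 log2 units, a mean of 2.57 ± 0.24, which is more than 3 SD and of 1 sign in all libraries. That rule defines a separated pair below. With 3 libraries an exact sign-flip test cannot go below p = 0.25, so no p-value is given for pairs.

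Pfn1, profilin, which charges monomers for addition to filament ends, had 4525 TPM in replicate 2, against 1908 TPM in replicate 1 and 1598 TPM in replicate 3 (mean 2677 ± 1610 TPM). It lay above Tmsb10 in replicate 2 and below it in the other libraries. Tmsb4x over Pfn1 was 3.00, 0.90 and 3.15 log2 units and was not separated. It was without replicate 2, at 3.07, and by leading coding transcripts, an alternative chosen after seeing the data, at 2.80. The profilin paralogue Pfn2 stood at 0.89 ± 0.403 TPM, 11.34 ± 1.46 log2 units below Pfn1. Actg1, cytoplasmic gamma-actin, which shares 88.7% of its 1128 coding bases with Actb, had 1610, 986 and 1919 TPM (mean 1505 ± 475 TPM). Actb exceeded Actg1 in each library, by 2.23, 3.67 and 1.57 log2 units, but the spread was too wide for the pair to count as separated (2.49 ± 1.07). It was separated without replicate 2, at 1.90, and with all 3 libraries by CPM (counts scaled to depth but not to length), at 2.12, and by the second quantification that the authors deposited, at 2.21.

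The cofilin family, which severs and disassembles filaments, had 1 dominant member. Cfl1, the non-muscle cofilin, had 1242, 963 and 1276 TPM (mean 1160 ± 171 TPM) and exceeded the muscle form Cfl2 (23.6, 17.8 and 21.9 TPM, mean 21.1 ± 2.96 TPM) by 5.77 ± 0.08 log2 units, one of the steadiest ratios measured. It exceeded destrin, Dstn (101 ± 19.7 TPM), by 3.53 ± 0.42. Both pairs were separated. Of the Cfl2 level, 54.9%, 58.1% and 57.4% in replicates 1, 2 and 3 lay on Cfl2-203, annotated as a processed transcript. By leading coding transcripts, an alternative chosen after seeing the data, Cfl1 exceeded Cfl2 by 7.27 ± 0.20. Cotl1, a coactosin-like protein that binds filaments, had 134 TPM in replicate 2, against 315 TPM in replicate 1 and 432 TPM in replicate 3 (mean 294 ± 150 TPM), and ranked second of the family in each library.

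The Arp2/3 complex holds 7 subunits, and for each at least 1 gene passed 100 TPM. The actin-related subunit Actr3 led with 653, 1338 and 877 TPM (mean 956 ± 349 TPM), followed by Arpc2 (875 ± 167 TPM), Arpc3 (758 ± 133 TPM), Arpc5 (522 ± 102 TPM), Arpc1b (430 ± 181 TPM), Arpc4 (344 ± 71.4 TPM) and the other actin-related subunit Actr2 (313 ± 85.3 TPM). Of the 8 steps between neighbours in this order, 2 were separated: Arpc3 over Arpc5 (0.54 ± 0.04 log2 units) and Actr2 over Arpc5l (2.95 ± 0.16). The rest of the order did not exceed the spread between libraries. Actr2 over Actr3 was negative throughout, at -0.83, -2.64 and -1.30, and did not count as separated with all 3 libraries. Without replicate 2 it did, at -1.06.

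Of the alternative subunits of the complex, 1 form was the higher in each library. Arpc1b, the form of the p40 subunit prominent in blood cells, had 571, 225 and 493 TPM, against 46.2, 18.2 and 49 TPM for Arpc1a (mean 37.8 ± 17.0 TPM). Both genes were lowest in replicate 2, yet their ratio was 3.62, 3.62 and 3.33 log2 units, a separated 3.53 ± 0.17. Arpc5 exceeded Arpc5l (46.8, 25.0 and 51.5 TPM, mean 41.1 ± 14.2 TPM) by 3.71 ± 0.27 and Actr3 lay above Actr3b, which had 1, 17 and 23 counts in replicates 1, 2 and 3. The summed forms did not match Arpc2 evenly: Arpc1a plus Arpc1b stood at 0.830, 0.229 and 0.663 of the Arpc2 level, lowest in replicate 2. Arpc3 over Arpc4 varied less, at 2.42, 2.19 and 2.04.

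Capping genes were led on average by Capg, a macrophage-enriched capping protein of the gelsolin family, but its level differed between libraries. It had 228 TPM in replicate 2, against 771 TPM in replicate 1 and 782 TPM in replicate 3 (mean 594 ± 317 TPM). Gsn, gelsolin, which severs and caps in response to calcium, had 26.1 TPM in replicate 2, against 80.8 TPM in replicate 1 and 97.3 TPM in replicate 3 (mean 68.1 ± 37.3 TPM). Both genes were lowest in replicate 2, and Capg over Gsn stayed at 3.25, 3.12 and 3.00 log2 units (3.13 ± 0.12, separated).

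Heterodimeric capping protein, built of an alpha and the beta subunit, varied less. Capza2 stood at 453 ± 60.1 TPM, Capzb at 395 ± 102 TPM and Capza1 at 180 ± 8.79 TPM, the smallest relative spread of all members (4.87% of its mean). Capza2 exceeded Capza1 by 1.32 ± 0.24 log2 units and the alpha forms together stood at 1.90, 1.37 and 1.69 times Capzb. In replicate 2 Capg lay below Capza2 by 1.19 log2 units, and in the other libraries above it by 0.92 and 0.86, so the leader of the class depended on the library.

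Coronins, which regulate Arp2/3 branches and filament turnover, were led by Coro1b with 434, 337 and 417 TPM (mean 396 ± 51.8 TPM). The leukocyte coronin Coro1a had 66.4 TPM in replicate 2, against 149 TPM in replicate 1 and 209 TPM in replicate 3 (mean 141 ± 71.6 TPM). Coro1c had 130 TPM in replicate 2, against 90.1 TPM in replicate 1 and 109 TPM in replicate 3 (mean 110 ± 20.0 TPM). Coro1a over Coro1c therefore turned sign, at -0.97 in replicate 2, while replicate 1 stood at 0.72 and replicate 3 at 0.93, and neither it nor Coro1a over Coro1b (-1.55, -2.34 and -1.0) was separated. Without replicate 2 both were, at 0.83 and -1.27, and Coro1a over Coro1b also was without replicate 3, at -1.94, and by the second quantification, at -1.77.

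Crosslinkers were ordered the same way in every library. Lcp1, L-plastin, the bundling protein of leukocytes, had 814, 1263 and 940 TPM (mean 1005 ± 232 TPM), Flna, filamin A, which crosslinks filaments into nets, 217, 189 and 226 TPM (mean 211 ± 19.3 TPM), and Fscn1, fascin, the bundler of filopodia, 27.5, 15.7 and 19.6 TPM (mean 20.9 ± 6.05 TPM). Both steps were separated, Lcp1 over Flna at 2.23 ± 0.44 log2 units and Flna over Fscn1 at 3.36 ± 0.34. Lcp1 also exceeded its relative Pls3 (2.31 ± 0.511 TPM) by 8.70 ± 0.64.

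Linkers to the membrane split into abundant and scarce members. Marcksl1, a lipid-bound actin linker related to Marcks, had 1322, 485 and 754 TPM (mean 854 ± 427 TPM), and Marcks had 231, 284 and 201 TPM (mean 239 ± 42.5 TPM). Marcksl1 was higher in each library, but by 2.52, 0.77 and 1.91 log2 units, which was not separated with all 3 libraries and was without replicate 2, at 2.21. Among the ERM proteins, which tie filaments to membrane receptors, moesin, Msn, stood at 655 ± 162 TPM, radixin, Rdx, at 37.2 ± 3.62 TPM and ezrin, Ezr, at 13.1, 18.2 and 11.2 TPM (mean 14.2 ± 3.61 TPM). Msn exceeded Rdx by 4.11 ± 0.27 and Ezr by 5.52 ± 0.16, both separated.

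Genes that start or lengthen filaments had a median level of 132 TPM, and 4 of 8 averaged 100 TPM or more. Vasp, which elongates filaments and shields their ends from capping, had 81.3 TPM in replicate 2, against 406 TPM in replicate 1 and 370 TPM in replicate 3 (mean 286 ± 178 TPM), the widest range of any member, with the highest library at 4.99 times the lowest. Its relative Evl had 359, 448 and 452 TPM (mean 419 ± 52.7 TPM), the highest mean of the class by gene TPM. Of this, 37.9%, 55.2% and 35.4% lay on Evl-207, 569 bases of which 13.7% are shared with the leading coding transcript. By leading coding transcripts, an alternative chosen after seeing the data, Evl had 138, 162 and 189 TPM. Nckap1l had 212, 235 and 243 TPM by that measure, so the lead of Evl depended on the measure. Vasp over Evl stood at 0.18, -2.46 and -0.29 log2 units, so no order held.

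Of the WASP relatives that switch on Arp2/3, the blood-cell form Was stood at 83.8 ± 13.7 TPM and exceeded the broadly expressed Wasl by 3.34, 2.48 and 4.08 log2 units (3.30 ± 0.80, separated, though not without replicate 1, at 3.28, or by CPM, at 2.16). Wasl had 14.3 TPM in replicate 2, against 7.02 TPM in replicate 1 and 5.74 TPM in replicate 3 (mean 9.03 ± 4.63 TPM). The WAVE complex genes Nckap1l (239 ± 14.2 TPM), Cyfip1 (181 ± 26.9 TPM) and Wasf2 (125 TPM in replicate 2, against 64.3 TPM in replicate 1 and 62.4 TPM in replicate 3; mean 83.9 ± 35.6 TPM) were all detected. Nckap1l exceeded Nckap1 (2.32 ± 0.913 TPM) by 6.69 ± 0.59 log2 units and Cyfip1 exceeded Cyfip2 (41.5 ± 6.06 TPM) by 2.12 ± 0.02, the smallest SD of the 29 pairs. Wasf1 had 0 counts in replicates 1 and 2 and 2 counts in replicate 3. An observed count of 0 leaves room for an expected count of up to about 3. Diaph1, a formin that builds unbranched filaments, stood at 35.4 ± 3.15 TPM.

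Vim, vimentin, the intermediate filament protein of mesenchymal and myeloid cells, had 1633, 929 and 1635 TPM (mean 1399 ± 407 TPM). The adhesion proteins were far apart: Tln1, talin, which activates integrins, had 416 TPM in replicate 2, against 148 TPM in replicate 1 and 143 TPM in replicate 3 (mean 235 ± 156 TPM), and Vcl, vinculin, which reinforces talin, had 4.20, 2.25 and 2.81 TPM (mean 3.09 ± 1.00 TPM), the lowest member. Tln1 exceeded Vcl by 6.06 ± 1.24 log2 units. Tln2 had 2, 2 and 10 counts in replicates 1, 2 and 3.

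Myosin II, the motor that contracts filaments, is built of heavy chains with essential and regulatory light chains. The essential light chain Myl6 had 461 TPM in replicate 2, against 990 TPM in replicate 1 and 1317 TPM in replicate 3 (mean 923 ± 432 TPM). The heavy chain Myh9 had 87.5, 96.5 and 85.3 TPM (mean 89.8 ± 5.95 TPM), and lay 7.28 ± 0.39 log2 units above Myh10 (0.493 ± 0.160 TPM). Myl6 lay above Myh9 by 3.23 ± 0.88, which was separated, though not without replicate 1, at 3.10, and by CPM it was -0.74. The regulatory light chains Myl12a (208 ± 42.9 TPM) and Myl12b (663 ± 213 TPM) together stood at 9.66 ± 1.26 times Myh9. Myl12a over Myl12b was -1.25, -2.51 and -1.18 log2 units, not separated, and without replicate 2 it was, at -1.22. By leading coding transcripts, an alternative chosen after seeing the data, Myl12a over Myl12b was -0.43 ± 0.76. Their values are uncertain because on chromosome 17 the second Myl12b ID (ENSMUSG00000117098.1, 70974119 to 71002208) overlaps the first (ENSMUSG00000034868.9, 70973133 to 70990890) and Myl12a (70993656 to 71002878). The deposited posterior SD of their counts was 0.595% to 4.62% of the count. That second ID held 502 TPM in replicate 2, against 254 TPM in replicate 1 and 266 TPM in replicate 3. Of the first ID, 60.4%, 85.4% and 58.9% in replicates 1, 2 and 3 lay on Myl12b-202. The gene TPM of Myl12b above include this retained-intron transcript of 369 bases. The leading coding transcript of Myl12b, Myl12b-206, belongs to the second ID, so the ratio of -0.43 rests on that ID alone. Myl12b-202 shares no bases with Myl12b-206, and its overlap with coding transcripts of its own ID was not computed.

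**Figure D2:**
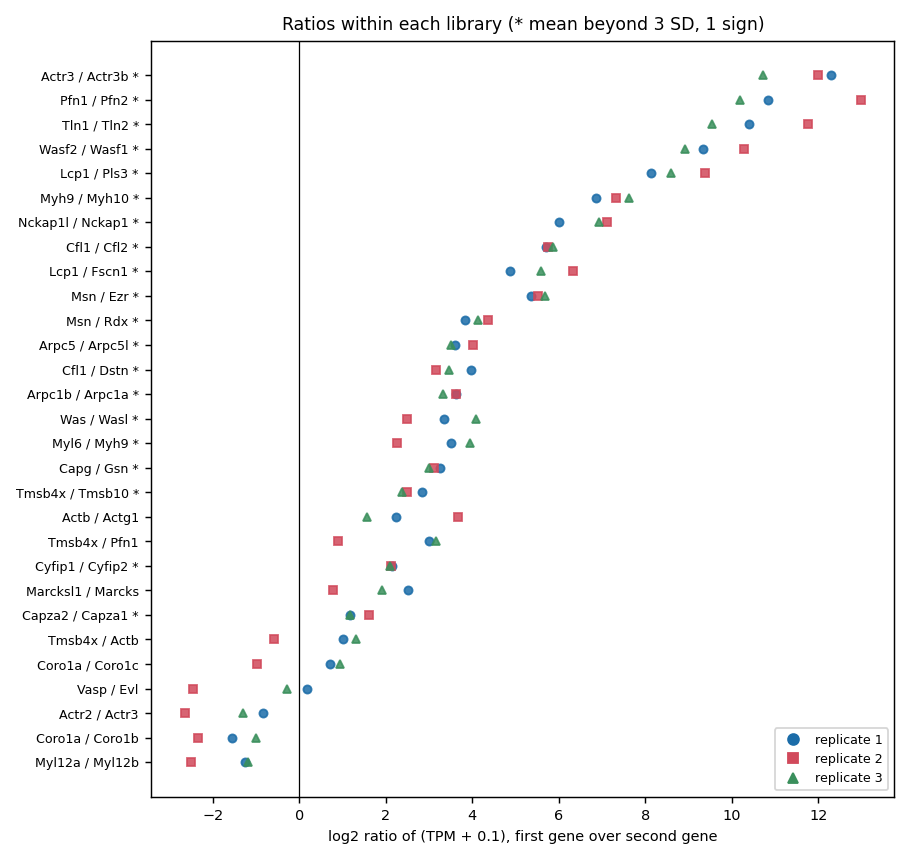
Log2 ratio of TPM + 0.1 within each library (x) for 29 pairs of related genes (y), 1 point per library, with an asterisk for the 20 pairs of 1 sign whose mean exceeds 3 SD. Ratios such as Cfl1 over Cfl2 (5.77) and Cyfip1 over Cyfip2 (2.12) lay close together, and replicate 2 lay apart in most pairs without an asterisk; ratios over Actr3b, Tln2 and Wasf1 rest on a few counts.

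In all, 20 of 29 pairs were separated, against 18, 28 and 21 without replicates 1, 2 and 3. Of the 37 steps between neighbours in the order of mean level within a role, 12 were separated and 25 without replicate 2. With 1 library left out the SD rests on 2 values, and replicate 2 had already been seen to stand apart. Separation without it, here and above, is therefore a description only.

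Role classes were then compared by the median of log2(TPM + 1) over their genes in each library. Monomer-binding genes lay above Arp2/3 genes by 1.90, 4.02 and 2.47 log2 units in replicates 1, 2 and 3 (2.80 ± 1.10). Arp2/3 genes lay above crosslinking genes by 1.39, 0.55 and 1.12 (1.02 ± 0.43), above capping genes by 0.88, 0.28 and 0.43 (0.53 ± 0.31), and above myosin II genes by 0.72, 0.03 and 0.44 (0.40 ± 0.34). By TPM all 4 differences were positive in each library and none exceeded 3 SD. Without replicate 2, monomer binding over Arp2/3 (2.18 ± 0.40) and Arp2/3 over crosslinking (1.26 ± 0.19) did, at 2 libraries, and without replicate 1 Arp2/3 over capping did (0.36). With the mean of the members in place of the median, Arp2/3 over myosin II was -0.09 ± 0.15. By CPM, Arp2/3 over crosslinking was -0.41 ± 0.12, beyond 3 SD in the other direction, and monomer binding over Arp2/3 was 1.15 ± 1.28, so no order of these classes is given.

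**Figure D3:**
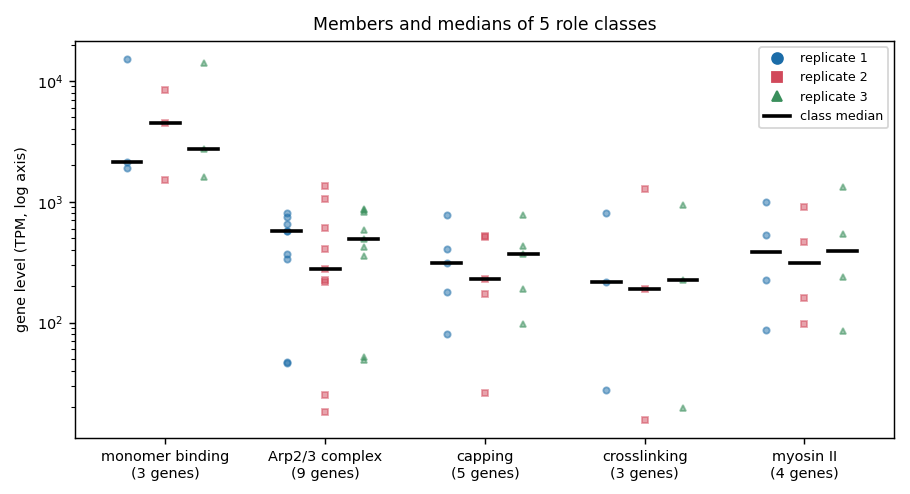
Gene level in TPM on a log axis (y) of the members of 5 role classes (x), 1 point per gene and library, with a bar at each library's class median. Monomer-binding medians of 2130 to 4520 TPM lie above the Arp2/3 medians of 278 to 571 TPM, and the capping, crosslinking and myosin II classes overlap.

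How far replicate 2 differed was asked gene by gene. The highest library was at least 2 times the lowest for 16 of 49 members (32.7%), against 39.8% of the detected protein-coding genes, and the difference in share was not tested. Replicate 2 was the highest library for 18 members (36.7%; 27.2% of detected genes) and the lowest for 27 (55.1%; 58.5%). Beyond counting noise, a chi-square test on TMM-scaled libraries with Benjamini-Hochberg adjustment called 48 of 50 gene IDs, against a background of 87.9% of 11932 genes. The exceptions were Myl12a (adjusted p = 0.444) and the first Myl12b ID (adjusted p = 0.270). Excess variance over genes of like abundance was called by edgeR's quasi-likelihood F test for 0 of 50 members, against 0% of 11932 genes. At an unadjusted p under 0.05 it held 3 members (Wasl, Coro1a and the second Myl12b ID) and 503 genes.

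Gene TPM and gene counts placed replicate 2 differently for some members, and the levels of single transcripts were therefore compared. Of 48 gene IDs at a mean of 10 TPM or more, 10 had 1 leading transcript in replicates 1 and 3 and another in replicate 2, which at 20.8% was close to the 20.9% of 6267 protein-coding genes. By the same measure 0 of the 48 differed in replicate 1 alone and 0 in replicate 3 alone, near the background of 2.51% and 2.04% of those genes. These 10, by the first quantification, were Actb, Actg1, Capza2, Coro1a, Evl, Flna, Lcp1, Pfn1, Tln1 and Wasf2.

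**Figure D4:**
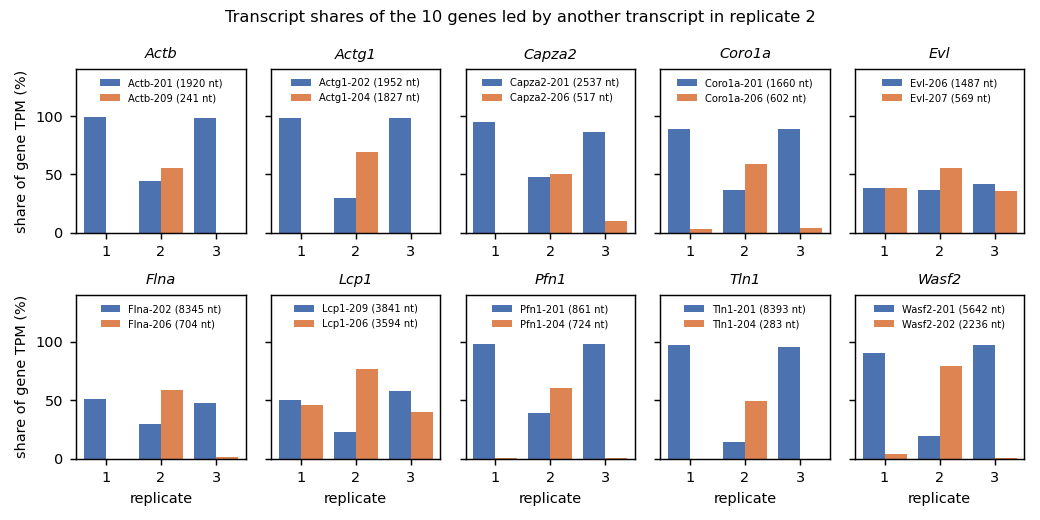
Share of gene TPM in percent by the first quantification (y) in replicates 1, 2 and 3 (x) for the 10 members led by another transcript in replicate 2. The leading transcript of replicates 1 and 3 is in blue and that of replicate 2 in orange. For Actb, Actg1, Pfn1, Tln1, Flna and Wasf2 the orange transcript takes 49.1% to 79.4% of replicate 2 and at most 3.8% of replicates 1 and 3.

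Tln1 showed it most. The full-length Tln1-201 (8393 bases) took 13.9% of the gene's TPM in replicate 2, against 96.9% and 95.8% in replicates 1 and 3, at 57.7 TPM against 143 TPM in replicate 1 and 137 TPM in replicate 3. The short Tln1-204 and Tln1-206 (836 bases) took 49.1% and 36.7% in replicate 2 and 0% in the others. Tln1-204 is shown because it held 204 TPM of the 416 TPM in replicate 2. It is an annotated processed transcript of 283 bases in 2 exons within chr4:43555564-43555946 on the minus strand of mm10. Lower case marks bases shared with exons of Tln1-201, 86.6% of the sequence and all of them coding there, and capitals mark the 38 bases that are not.
Tln1-204: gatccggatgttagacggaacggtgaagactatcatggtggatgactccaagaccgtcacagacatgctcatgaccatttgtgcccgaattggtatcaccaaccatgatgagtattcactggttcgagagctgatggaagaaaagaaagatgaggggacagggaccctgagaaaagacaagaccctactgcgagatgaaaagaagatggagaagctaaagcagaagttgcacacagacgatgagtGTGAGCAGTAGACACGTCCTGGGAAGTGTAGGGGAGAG
By gene TPM, Tln1 in replicate 2 was 1.51 log2 units above the mean of the other libraries. By TMM-scaled counts it was -0.59, that is lower, the only member whose sign turned by over 0.5 on both scales. The second quantification, derived from read files where the first was derived from alignments, per the deposited notes, placed 165 TPM on Tln1-204 in replicate 2, against 5.06 TPM in replicate 1 and 0 TPM in replicate 3.

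Most of the Pfn1 level in replicate 2 lay on Pfn1-204, annotated as subject to nonsense-mediated decay, with 2744 TPM in replicate 2 against 9.72 TPM in replicate 1 and 9.93 TPM in replicate 3. The coding form Pfn1-201 was level, at 1774 TPM in replicate 2 against 1879 TPM in replicate 1 and 1569 TPM in replicate 3. Inside the stretch they share, Pfn1-204 lacks 25 bases of the coding sequence, shown because they tell the forms apart. They are in capitals between 15 spliced bases on either side, within chr11:70652940-70654363 on the minus strand of mm10.
Pfn1-201: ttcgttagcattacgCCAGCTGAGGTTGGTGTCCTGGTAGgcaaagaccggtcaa
Pfn1 was high in replicate 2 by counts as well, by 1.66 log2 units, and the second quantification put 3106 TPM on Pfn1-204 there.

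For Actb the transcript in question was Actb-209, 241 bases that lie wholly outside the coding part of Actb-201. It had 6952 TPM in replicate 2 and 0 in replicates 1 and 3, while Actb-201 had 5603 TPM in replicate 2 against 7493 TPM in replicate 1 and 5607 TPM in replicate 3. The second quantification gave Actb-209 less, 1201 TPM in replicate 2 against 5690 TPM for Actb-201. By that quantification Actb-201 therefore led in replicate 2 as well. Wasf2-201 had 23.8 TPM in replicate 2 against 58.3 TPM in replicate 1 and 60.8 TPM in replicate 3, so Wasf2 was the lower there by its full-length transcript and the higher by its gene TPM. Actg1-204 (686 TPM in replicate 2, 0 in the others) differs little in length from Actg1-202 (1827 and 1952 bases), and took 69.5% of the gene in replicate 2. Flna-206 took 58.5% of Flna and the retained-intron transcript Coro1a-206 took 58.8% of Coro1a in replicate 2, against at most 3.7% elsewhere.

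At least 1 transcript gained 15 percentage points of its gene in replicate 2 over the mean of replicates 1 and 3 in 21 of 50 member gene IDs (42.0%), near the 46.6% of 10291 detected gene IDs. Of those 22 member transcripts, 19 were shorter than the leading transcript of replicates 1 and 3 (86.4%, against 68.8% of 5327 such transcripts over the detected gene IDs) and 15 were under 1000 bases (68.2%, against 47.5%). These differences in share were not tested. The abundance-weighted transcript length of replicate 2 was under 0.75 of the mean of replicates 1 and 3 for 11 of 50 members (22.0%), against 13.4% of 10291 detected gene IDs. It was 0.199 for Tln1, 0.520 for Actb and 0.531 for Wasf2. The members' median was 0.996.

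Counts in replicate 2 also moved with base composition. Across the 50 member IDs, the log2 difference of replicate 2 from the mean of replicates 1 and 3 had a Pearson r of -0.44 with the GC content of the leading transcript, and across 10291 detected gene IDs -0.48. Genes share libraries and are not independent, so no p is given. Of 15 members at 55% GC or more, 11 were lower in replicate 2 (73.3%, median -0.61), near the 80.9% of 2463 detected gene IDs (median -0.65), among the members Vasp (58.0% GC, -1.86), Coro1a (58.6%, -1.73), Capg (57.1%, -1.32), Arpc1b (56.6%, -1.29), Gsn (56.4%, -1.28) and Cotl1 (59.0%, -1.02). Of 21 members under 50% GC, 14 were higher (66.7%, median 0.29), near the 69.1% of 5127 detected gene IDs (median 0.28), among the members Wasl (43.7%, 1.56), Msn (47.7%, 0.99), Lcp1 (47.6%, 0.92) and Arpc2 (46.6%, 0.90). Members on both sides went the other way. At 55% GC or more, Pfn1 (55.4%, 1.66), the second Myl12b ID (1.56), Was (55.8%, 0.29) and Myh9 (57.0%, 0.22) were higher in replicate 2. Under 50% GC, Arpc5l (49.7%, -0.43), Actr2 (40.3%, -0.35) and Tmsb4x (46.4%, -0.27) were among those lower there. The part of base composition in these levels was not tested.

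**Figure D5:**
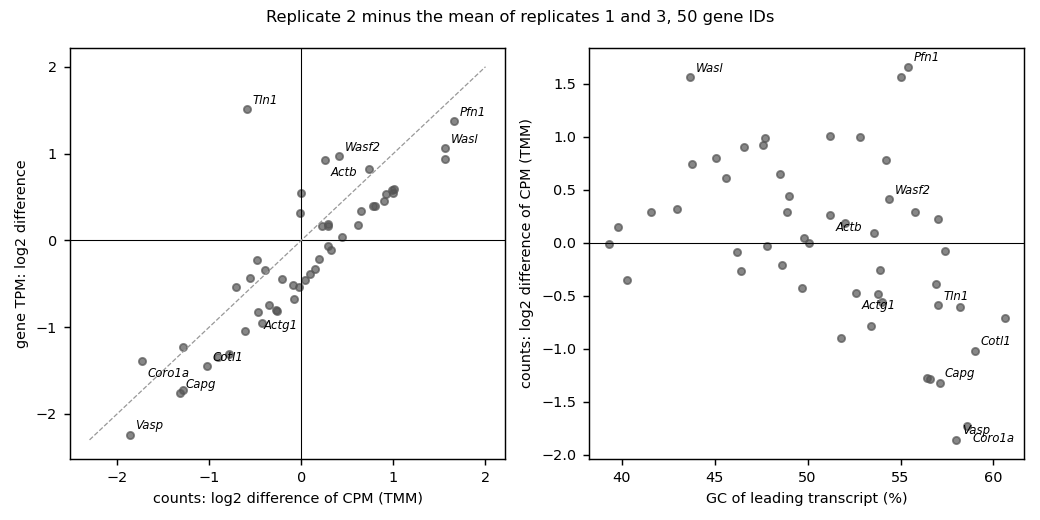
Left, replicate 2 minus the mean of replicates 1 and 3 for 50 member gene IDs, by counts (x, log2 CPM with TMM scaling) and by gene TPM (y, log2 of TPM + 1), with the line of equality dashed. Right, the same count difference (y) against GC content of the leading transcript in percent (x). Tln1 lies apart on the left at -0.59 and 1.51, and Vasp and Coro1a are lowest on the right at -1.86 and -1.73.

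The same transcript led in both quantifications for 48 of 48 member gene IDs at 10 TPM or more, over the mean of the 3 libraries, against a background of 90.2% of 6267 protein-coding genes. By limma on the within-library log2 differences, 0 of 50 members differed between quantifications by at least 1 log2 unit at an adjusted p under 0.05, against 1.66% of 10203 genes. At an unadjusted p under 0.05, 2 members and 620 genes passed: the second minus the first was -0.63 ± 0.18 for Flna (SE; limma adjusted p = 0.0163), below the size required, and -0.52 ± 0.18 for Actb (limma adjusted p = 0.118). The median member moved by -0.48, 0.03 and -0.12 log2 units in replicates 1, 2 and 3, against -0.42, 0.05 and -0.09 for all genes.

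Other genes of the same pathways were read from 4 lists. Of 12 further turnover genes 7 reached 1 TPM in every library (median 3.72 TPM), led by Cap1 (427 ± 70.6 TPM) and the cofilin helper Wdr1 (299 ± 115 TPM), with Cap2 at 0 counts and Vil1 at 0.0333 ± 0.0306 TPM.

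Of 33 further nucleation and elongation genes, 22 reached 1 TPM in every library (median 4.38 TPM). The leukocyte cortactin relative Hcls1 (577 ± 74.6 TPM) and the WAVE subunit Abi1 (278 ± 222 TPM; 535 TPM in replicate 2 against 153 TPM in replicate 1 and 146 TPM in replicate 3) led, and Cobl and Wipf3 had 0 counts. Of 17 crosslinking and adhesion genes 10 did (median 11.0 TPM), led by the kinase Ptk2b (201 ± 30.4 TPM) and the kindlin Fermt3 (177 ± 76.2 TPM). Actn2, Actn3, Fermt1, Flnc and Pls1 were listed at 0 TPM. Of 15 tropomyosins and other myosins 10 did (median 42.0 TPM), led by Tpm3 (675 ± 206 TPM) and Tpm4 (229 ± 18.4 TPM), with Myh14 at 0 counts and Myl9 at 0.0133 ± 0.0231 TPM.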

How the data were processed

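The 3 libraries have 2 quantifications each of mm10 transcripts (GENCODE M21), per the deposited notes, which name no tool. The authors' first gene tables hold expected counts, TPM and a score, the posterior SD of each count, per the file headers, and the first transcript tables the percent of a gene's TPM taken by each transcript. The deposited second tables hold estimated counts and TPM per transcript, and were summed to genes here. The Myl12 gene IDs overlap. Gene names came from the deposited target names, and sequences from GENCODE M21.

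Expected counts were rounded for count tests (R 4.3.3, edgeR 4.0.16). Entries that are no annotated gene took 0.0875%, 0.0464% and 0.0636% of the counts in replicates 1, 2 and 3; tests left them out. TMM factors were 1.01, 0.886 and 1.12. The 3 libraries form 1 group, so counting noise was tested by chi-square and excess variance by a one-sided quasi-likelihood F test, both after filterByExpr, with an adjusted p under 0.05 called. In seeded simulations of 11932 genes the variance test recovered 0% of 2-fold, 46% of 4-fold and 100% of 8-fold changes in 1 library. They used a dispersion (variance beyond counting noise) of 0.05. The fitted dispersions of the members were larger, at 0.101 to 0.151, and recovery at those values was not simulated. Quantifications were compared with limma 3.58.1 on log2(TPM + 1), genes at 1 TPM or more. Pairs used log2 ratios of TPM + 0.1. Levels of the Myl12b IDs were summed. The alternatives tried were other normalization, filters, pseudocounts and units, the second quantification and leaving out each library.

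All members are named with their mean. The highest and lowest of each role, and members with a 2-fold range, have every library's value. Members and lists were chosen with earlier results of these data known. Some genes are not reported here.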

Additional observations from a re-analysis of the deposited data

How the results depend on the processing

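No paired analysis was possible because the 3 libraries form 1 group and there is nothing to pair. Counting noise (48 members) and separated pairs (20) stayed within 1.5 times under every alternative, at 43 to 47 members and 18 to 28 pairs when 1 library was left out. The same transcript led in both quantifications for 46 to 48 members then. Excess variance and quantification differences stayed at 0 members in each alternative. Over all genes, excess variance was called by edgeR for 64 genes without a filter and for 20, 7 and 11 without replicates 1, 2 and 3, against 0. Quantification differences were called by limma for 258 genes with pseudocount 0.1, 0 without a filter and 85 with differences centred within each library, an alternative chosen after seeing the data, against 169.

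Class medians were less stable. Monomer binding minus Arp2/3 (2.80) fell to 1.15 with CPM, exceeded 3 SD with means of members (3.72), with cofilins counted in (1.43) and with leading transcripts alone (2.76), an alternative chosen after seeing the data, and ranged over 2.18 to 3.24 with 1 library left out. Arp2/3 minus crosslinking (1.02) did so with means (0.85) and leading transcripts (1.85), ranged over 0.84 to 1.26, and turned to -0.41 with CPM, beyond 3 SD in the other direction; CPM does not divide by transcript length. Arp2/3 minus capping (0.53) did so with means (0.25) and ranged over 0.36 to 0.65. Arp2/3 minus myosin II (0.40) turned to -0.09 with means and ranged over 0.24 to 0.58; the cause was not tested. Of the pairs, CPM turned Tmsb4x over Actb to -0.73, Coro1a over Coro1c to -1.32, Vasp over Evl to 0.24 and Myl6 over Myh9 to -0.74. Leading transcripts turned Coro1a over Coro1c to -0.25 and Vasp over Evl to 0.47, and Coro1a over Coro1c ranged over -0.12 to 0.83 with 1 library left out. Of the 49 member levels, 16 moved by more than 1 SD with leading transcripts and 6 with the second quantification. Leaving out 1 of 3 libraries cannot move a mean by 1 SD, so it says nothing on this point. The number of libraries, 3, limits the precision.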
